A study of Mus musculus with 8 samples.

Results

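The genes described are 36 members of the NRF2 and glutathione antioxidant programme, a set of stress-response enzymes together with the regulator pair Nfe2l2 and Keap1. They were chosen by gene name, and all 36 were among the 22026 gene names in the deposited tables, of which 15815 had any read. RNA sequencing covered 8 libraries of the mouse breast cancer cell lines TS/A and 4T1, both labelled as BALB/c. The groups, each of 2 libraries, were TS/A with a Gpr56/Adgrg1 expressing virus vector, TS/A with an empty vector, 4T1 with the Gpr56/Adgrg1 vector and 4T1 with an empty vector. Gpr56 (Adgrg1) is an adhesion receptor that binds type III collagen. All cells grew in RPMI with 10% FCS, and per the design text the cultures stood with type III collagen for 72 h before total RNA was taken. The sample titles set Emp_ColIII against Emp_Control where the characteristics set the Gpr56/Adgrg1 vector against the empty vector, so a difference of vector and a difference of collagen culture cannot be told apart from the labels, and groups are named here by the vector. The labels do not say whether the 2 libraries of each group are separate cultures, and the p-values therefore reflect library-to-library spread that may be only technical. The labels do not name the promoter of the vector or say whether clones or pools were used. With 1 line of each kind, the comparison of TS/A with 4T1 is of these lines alone.

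Nfe2l2 encodes NRF2, a transcription factor that KEAP1 normally hands to the proteasome. When oxidants or electrophiles modify cysteines of KEAP1, NRF2 escapes, pairs with a small MAF protein and binds antioxidant response elements near genes for glutathione synthesis, thioredoxin recycling, quinone reduction, heme and iron handling and NADPH supply. The programme is known for protecting tumour cells from oxidants and from lipid peroxidation, and SLC7A11 with GPX4 forms the cystine-glutathione arm that restrains ferroptosis. Much of its regulation acts on the NRF2 protein and not on Nfe2l2 mRNA, and protein was not measured here.

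The core of an antioxidant response element, TGACNNNGC, was looked for on both strands of RefSeq promoter windows (GRCm38.p6; 250 bases before to 50 after a start). A window was at hand for 30 members, of which 11 (36.7%) held the motif, against 14% of 27025 genes. Of the 17 members with a window that were higher in TS/A than in 4T1 (below), 8 held it, and of the 13 others (lower, not called or not tested) 3 did. These counts are small, and the difference between them was not tested. The AP-1 site TGACTCA can lie inside this motif and did so in 2 of the 11 matches, those of Me1 and Prdx1. A match says only that these letters are in the window. The members were chosen as genes of this programme, so their share with the motif describes the list and is not a result of these data. The 6 matches below are from members that were higher in TS/A than in 4T1. Each is read 5′ to 3′ on the gene's own strand, with the motif in capitals. GCNNNGTCA is the motif on the opposite strand.
Gclm: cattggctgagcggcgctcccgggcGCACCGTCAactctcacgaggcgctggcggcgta
Gstm5: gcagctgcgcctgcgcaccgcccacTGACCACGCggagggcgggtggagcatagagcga
Txnrd1: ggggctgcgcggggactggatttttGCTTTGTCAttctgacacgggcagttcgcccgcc
Nfe2l2: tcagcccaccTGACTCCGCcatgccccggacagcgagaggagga
Me1: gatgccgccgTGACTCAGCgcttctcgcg
Srxn1: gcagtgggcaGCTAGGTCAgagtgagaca
The Gclm stretch lies at chr3:122245398-122245456 (plus strand), with the motif's first base 134 bases before the start. The Gstm5 stretch lies at chr3:107895787-107895845 (plus strand), 42 bases before the start, and the Txnrd1 stretch at chr10:82859089-82859147 (plus strand), 92 bases before its start. That RefSeq start of Txnrd1 is an internal one, since GENCODE places the gene at 82833951 to 82897712. The Nfe2l2 stretch lies at chr2:75704870-75704913 (minus strand), 240 bases before the start, so the gene of the regulator itself carried the motif. The Me1 match at chr9:86695902-86695930 (minus strand) is the one that holds TGACTCA, 6 bases before the RefSeq start. It lies inside the gene as GENCODE places it (86581371 to 86695953). The Srxn1 match at chr2:152105542-152105570 (plus strand) begins at base 29 of the transcribed side. The windows of Gstm1, Nqo1, Slc7a11, Blvrb and Gpx4, members with large differences between the lines (below), held no match. This says nothing of sites outside them.

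The libraries held 10510569 to 25959142 reads each, and the 36 members together held 1.09% to 1.29% of the reads of a library. Adgrg1 itself parted the vector labels in 4T1 (90.5 and 100.1 against 2.53 and 2.77 CPM, counts scaled to library size) and not in TS/A (22.6 and 13.3 against 34.8 and 16.3), so the TS/A vector groups are named by their labels only. The TS/A empty-vector libraries stood apart from each other: between them the median member differed by 0.27 on the log2 scale, against 0.08 between the TS/A Gpr56 libraries, 0.06 between the 4T1 Gpr56 libraries and 0.06 between the 4T1 empty-vector libraries. The 8 mammary epithelial markers summed to 180 to 261 CPM in TS/A and 2238 to 3236 CPM in 4T1; in TS/A Epcam, Cdh1, Krt7, Krt8, Cldn4 and Cldn7 were at or near 0 while Krt18 and Krt19 remained. Fibroblast markers summed to 149 to 336 CPM in TS/A, nearly all of it Col1a1 with Dcn, Lum, Thy1 and Fap at or near 0, and to 8.57 to 15.5 CPM in 4T1. Immune markers stayed at or under 17.9 CPM, mostly Cd68, and endothelial markers under 1 CPM. The part of these differences in the results on the lines below was not tested.

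TS/A expressed most of the programme at a higher level than 4T1. Of 35 members tested (Gpx2 had too few reads), 20 were higher and 6 lower in TS/A by edgeR's quasi-likelihood test at an adjusted p under 0.05, and 9 did not pass. Among all 11970 genes tested, 65.1% passed, 32.8% higher and 32.4% lower, so the members' share of calls (74.3%) was near the background while more of them were higher in TS/A than lower. The median log2 fold change (TS/A over 4T1) was 0.36 for the members and 0.01 for all genes. Without TS/A empty library 1, 30 members passed beside 76.2% of all genes, and without library 2, 29 passed beside 72.5%. In every fit that leaves out 1 library, the lone library of its group is assumed to vary like the other groups. In 25 members all 4 libraries of TS/A lay on 1 side of all 4 of 4T1, as 58.9% of all genes did. In bulk RNA, fewer cells of a type and less RNA per cell cannot be told apart. Levels are given as CPM, scaled by TMM over the 8 libraries.

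**Figure D1:**
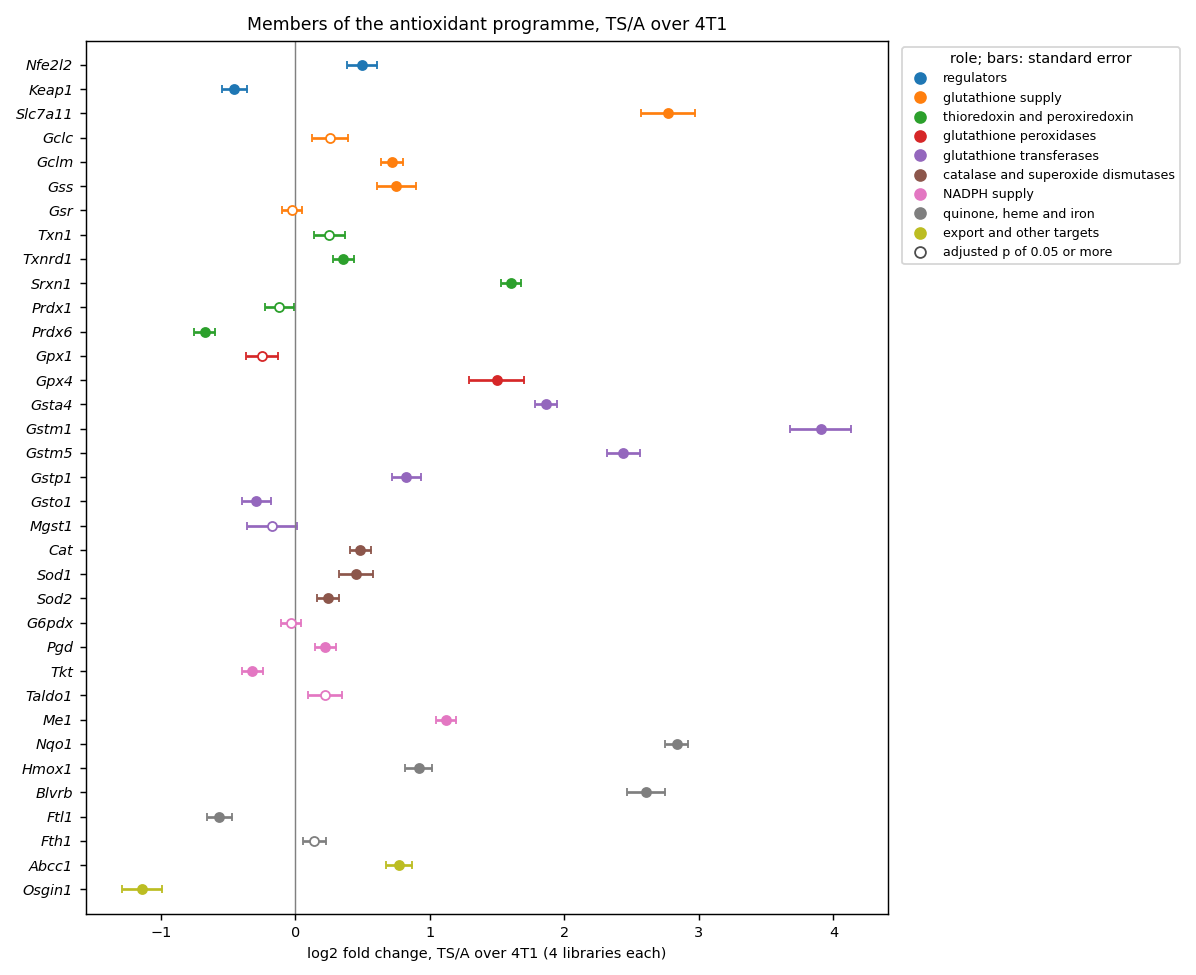
Log2 fold change of TS/A over 4T1 (x axis) for the 35 tested members, ordered and coloured by role; bars are standard errors and open points did not pass an adjusted p of 0.05. Gstm1, Nqo1, Slc7a11, Blvrb and Gstm5 lie above 2, and Osgin1 is the lowest at -1.14.

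The regulators moved in opposite directions. Nfe2l2 (chromosome 2, 75675513 to 75704641, minus strand, GRCm38) had 114 and 91.9 CPM in TS/A Gpr56 and 124 and 98.3 CPM in TS/A empty libraries, against 73.8 and 80.6 CPM in 4T1 Gpr56 and 77.4 and 71.6 CPM in 4T1 empty libraries. Keap1 (chromosome 9, 21229730 to 21239361, minus strand), the NRF2 adaptor of a ubiquitin ligase, had 54.9 and 51.2 CPM in TS/A Gpr56 and 60.1 and 49.8 CPM in TS/A empty libraries, against 81.4 and 77.8 CPM in 4T1 Gpr56 and 70.3 and 67.0 CPM in 4T1 empty libraries. For neither gene did the lines overlap. Nfe2l2 was 1.41-fold higher in TS/A (log2 fold change 0.50, SE 0.11, edgeR adjusted p = 0.0045) and Keap1 was lower (-0.45, SE 0.09, adjusted p = 0.0025). With the empty-vector groups alone the Keap1 call was lost (adjusted p = 0.0704).

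Glutathione supply was led by Slc7a11 (chromosome 3, 49892526 to 50443614, minus strand), the cystine carrier of system xc-. It had 128 and 207 CPM in TS/A Gpr56 and 92.2 and 140.3 CPM in TS/A empty libraries, against 22.4 and 27.1 CPM in 4T1 Gpr56 and 17.9 and 15.9 CPM in 4T1 empty libraries. The lowest TS/A library thus lay well above the highest 4T1 library, a 6.83-fold difference (log2 fold change 2.77, SE 0.20, edgeR adjusted p = 9.01e-06). Gclm, the modifier subunit of glutamate-cysteine ligase, had 173 and 164 CPM in TS/A Gpr56 and 171 and 149 CPM in TS/A empty libraries, against 90.1 and 87.9 CPM in 4T1 Gpr56 and 108 and 117 CPM in 4T1 empty libraries. All TS/A libraries were above all 4T1 libraries (0.72, SE 0.08, adjusted p = 1.25e-04). Gclc, the catalytic subunit of the same enzyme, had 86.8 and 66.0 CPM in TS/A Gpr56 and 93.2 and 67.9 CPM in TS/A empty libraries, against 61.5 and 68.5 CPM in 4T1 Gpr56 and 69.2 and 63.3 CPM in 4T1 empty libraries. The lines overlapped for Gclc, and the difference did not pass (0.26, SE 0.13, adjusted p = 0.118). Glutathione synthetase, Gss, was higher in TS/A (0.75, SE 0.15, adjusted p = 0.0022), while glutathione reductase, Gsr, was not called (-0.02, SE 0.08, adjusted p = 0.792).

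Glutathione transferases, which join glutathione to electrophiles, held the widest range of any role. Gstm1 (chromosome 3, 108012255 to 108017973, minus strand) had 83.4 and 59.6 CPM in TS/A Gpr56 and 87.1 and 47.3 CPM in TS/A empty libraries, against 4.35 and 4.50 CPM in 4T1 Gpr56 and 4.67 and 5.03 CPM in 4T1 empty libraries. Even the lowest TS/A library was far above 4T1, and the difference was 15-fold (log2 fold change 3.90, SE 0.23, edgeR adjusted p = 2.79e-06). Gstm5, another mu-class enzyme of the same chromosome, had 33.8 and 33.1 CPM in TS/A Gpr56 and 24.3 and 27.7 CPM in TS/A empty libraries, against 5.34 and 3.94 CPM in 4T1 Gpr56 and 6.24 and 6.25 CPM in 4T1 empty libraries. Its lines did not overlap either (5.42-fold; 2.44, SE 0.12, adjusted p = 1.25e-06). Gsta4, which clears the lipid peroxidation product hydroxynonenal, had 117 and 107 CPM in TS/A Gpr56 and 123 and 133 CPM in TS/A empty libraries, against 34.8 and 35.6 CPM in 4T1 Gpr56 and 31.4 and 30.4 CPM in 4T1 empty libraries. All TS/A values were above all 4T1 values (3.63-fold; 1.86, SE 0.08, adjusted p = 5.47e-07). Gstp1 was 1.77-fold higher in TS/A, Gsto1 was lower (-0.29, SE 0.11, adjusted p = 0.0444), and the microsomal enzyme Mgst1 was low in both lines and not called. The Gsto1 call was lost in 8 of 17 alternatives, among them those without either 4T1 empty library, either 4T1 Gpr56 library or either TS/A Gpr56 library (highest adjusted p 0.149). How reads shared with close relatives (Gstp2 for Gstp1, the other mu-class genes for Gstm1) were assigned is not given in the sources used here.

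Enzymes of quinones, heme and iron split. Nqo1 (chromosome 8, 107388225 to 107403206, minus strand), the quinone reductase most used as an NRF2 readout, had 299.8 and 297 CPM in TS/A Gpr56 and 304 and 327 CPM in TS/A empty libraries, against 38.9 and 43.9 CPM in 4T1 Gpr56 and 44.4 and 45.1 CPM in 4T1 empty libraries. Levels were tight within each line and 7.13-fold apart (log2 fold change 2.83, SE 0.08, edgeR adjusted p = 6.14e-08). Blvrb, a biliverdin and flavin reductase, had 40.1 and 43.2 CPM in TS/A Gpr56 and 27.7 and 40.5 CPM in TS/A empty libraries, against 6.13 and 6.28 CPM in 4T1 Gpr56 and 6.13 and 6.15 CPM in 4T1 empty libraries. The lines did not overlap (6.10-fold; 2.61, SE 0.14, adjusted p = 1.90e-06). Hmox1, the inducible heme oxygenase, had 179.7 and 177 CPM in TS/A Gpr56 and 131 and 119.8 CPM in TS/A empty libraries, against 65.5 and 82.5 CPM in 4T1 Gpr56 and 80.3 and 89.7 CPM in 4T1 empty libraries. All TS/A libraries were above all 4T1 libraries (1.89-fold; 0.92, SE 0.10, adjusted p = 8.30e-05). With the empty-vector groups alone its log2 fold change was 0.56 and stayed called. The ferritin light chain Ftl1 was lower in TS/A (-0.56, SE 0.09, adjusted p = 8.32e-04) and the heavy chain Fth1 was not called (0.14, SE 0.09, adjusted p = 0.178).

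Among peroxide-removing proteins, Gpx4, which reduces lipid hydroperoxides, had 649.9 and 679.9 CPM in TS/A Gpr56 and 402 and 821 CPM in TS/A empty libraries, against 221 and 183 CPM in 4T1 Gpr56 and 250.1 and 255 CPM in 4T1 empty libraries. The TS/A empty libraries were the lowest and the highest of their line, yet both were above 4T1 (2.82-fold; log2 fold change 1.5, SE 0.20, edgeR adjusted p = 3.10e-04). Srxn1, the sulfiredoxin that repairs overoxidised peroxiredoxins, had 242 and 227 CPM in TS/A Gpr56 and 189 and 190.0 CPM in TS/A empty libraries, against 74.8 and 74.0 CPM in 4T1 Gpr56 and 66.7 and 62.5 CPM in 4T1 empty libraries. Its lines were far apart (3.04-fold; 1.60, SE 0.08, adjusted p = 7.78e-07). The thioredoxin reductase Txnrd1 (0.36), catalase Cat (0.48), the cytosolic superoxide dismutase Sod1 (0.45) and the mitochondrial Sod2 (0.24) were also higher in TS/A, with edgeR adjusted p from 7.89e-04 to 0.0300. For Sod1 the lines overlapped, with 355 CPM in the lowest TS/A and 357 CPM in the highest 4T1 library. Sod2 overlapped too, at 132 and 133 CPM. Prdx6, a peroxiredoxin with phospholipase activity, was lower (-0.67, SE 0.08, adjusted p = 1.34e-04). Thioredoxin Txn1 (0.25, adjusted p = 0.0784), Prdx1 (-0.12, adjusted p = 0.355) and Gpx1 (-0.25, adjusted p = 0.0955) did not pass. Gpx2, the gastrointestinal glutathione peroxidase, had no read in any TS/A library and 0, 1, 1 and 4 reads in the 4T1 libraries, too few to compare (3 reads were 0.114 to 0.162 CPM in the TS/A libraries).

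In NADPH supply, malic enzyme Me1 was 2.17-fold higher in TS/A (log2 fold change 1.12, SE 0.08, edgeR adjusted p = 6.04e-06). The pentose phosphate enzymes did not follow it: Pgd was slightly higher (0.22, adjusted p = 0.0345), transketolase Tkt was lower (-0.32, adjusted p = 0.0069), and G6pdx (-0.03, adjusted p = 0.712) and Taldo1 (0.22, adjusted p = 0.156) did not pass. Abcc1, an exporter of glutathione conjugates, was 1.71-fold higher in TS/A (0.77, SE 0.10, adjusted p = 2.11e-04). Osgin1 (chromosome 8, 119434124 to 119446256, plus strand), an oxidative stress-induced growth inhibitor and known NRF2 target, went the other way at 13.8 and 16.2 CPM in TS/A Gpr56 and 14.5 and 9.37 CPM in TS/A empty libraries, against 39.6 and 39.8 CPM in 4T1 Gpr56 and 20.6 and 23.4 CPM in 4T1 empty libraries. All TS/A libraries were below all 4T1 libraries (-1.14, SE 0.15, adjusted p = 2.31e-04). Apart from Gsto1 and Keap1, the calls between the lines that any alternative lost were those of Pgd, Sod2 and Sod1. Pgd was lost in 9 of 17 alternatives and Sod2 in 6. Both were lost between the empty-vector groups alone, which gave the highest adjusted p of each. There Pgd stood at 0.20 (edgeR adjusted p = 0.177) and Sod2 at 0.11 (adjusted p = 0.459). Both were also lost without either 4T1 empty library, either 4T1 Gpr56 library or TS/A Gpr56 library 2. Pgd was lost without TS/A Gpr56 library 1 as well. Sod1 was lost in 2 (highest 0.0584), without 4T1 empty library 1 and without 4T1 Gpr56 library 1. The log2 fold change of Sod1 was 0.29 without TS/A empty library 2, and that of Gsto1 was -0.18 without TS/A empty library 1, both still called.

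**Figure D2:**
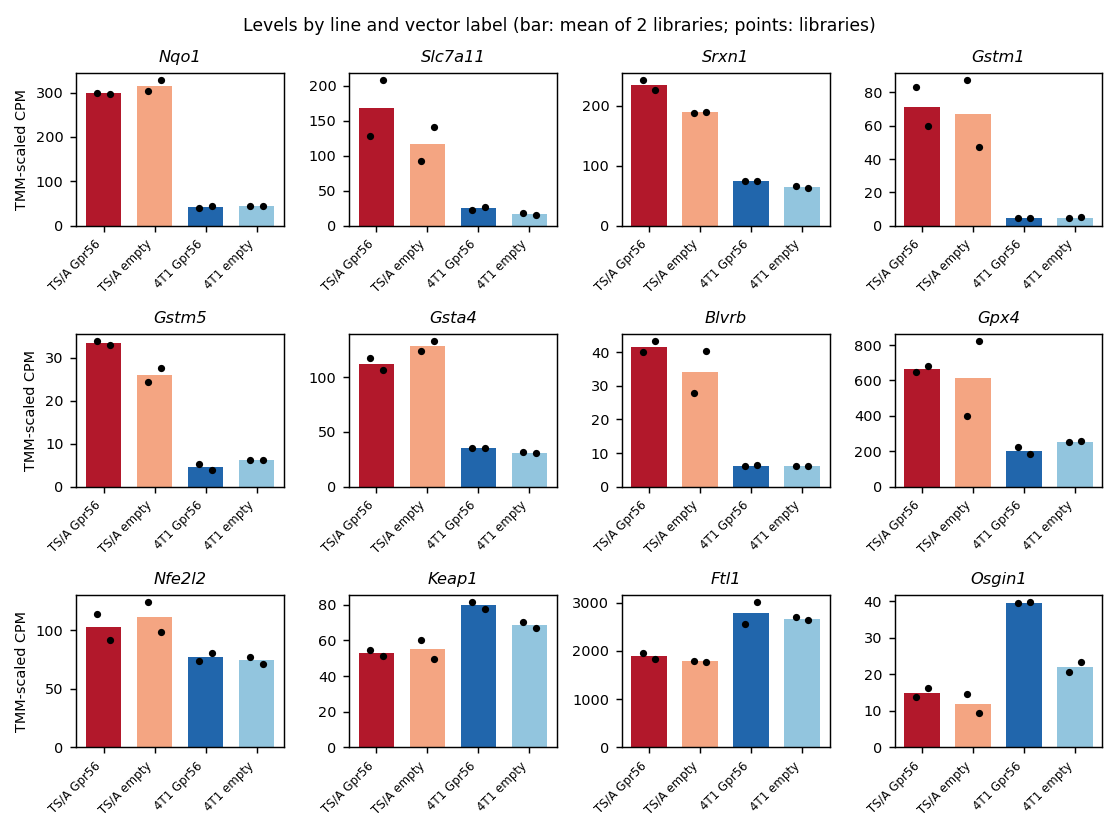
TMM-scaled CPM (y axis, from 0, a scale of its own in each panel) of 12 members in the 4 groups; bars are means of 2 libraries and points are libraries. Nqo1 stands between 297 and 327 CPM in TS/A and between 38.9 and 45.1 CPM in 4T1, while the points of Gpx4 and Gstm1 spread widely within TS/A.

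Per length, as the authors' RPKM summed over a gene's transcripts, the ferritin chains were the most abundant members in both lines. Fth1 stood at 2901 ± 172 RPKM in TS/A and 2606 ± 149 RPKM in 4T1 (SD, n = 4 each), and Ftl1 at 1823 ± 123 RPKM in TS/A and 2681 ± 226 RPKM in 4T1. Nqo1 took place 10 of 36 in TS/A at 188 ± 6.49 RPKM and place 24 in 4T1 at 26.2 ± 1.55 RPKM. Gpx4 took place 3 in TS/A (666 ± 156 RPKM) and place 9 in 4T1 (239 ± 27.0 RPKM), and Gstm1 place 22 in TS/A (52.5 ± 16.4 RPKM) and place 34 in 4T1 (3.58 ± 0.185 RPKM). Slc7a11 stayed near the bottom in both lines, at place 33 in TS/A (14.6 ± 4.71 RPKM) and 35 in 4T1 (2.15 ± 0.531 RPKM), despite its fold difference. In TS/A, Gpx4, Prdx1 (662 ± 62.5 RPKM) and Sod1 (651 ± 80.9 RPKM) were neighbours in that order that did not differ beyond their spread. Prdx1, Ftl1, Fth1, Txn1, Sod1 and Gpx4 have pseudogene copies in the mouse genome, and how the authors' counting treated reads that fit both is not given in the sources used here. As the deposited counts assign them, 20 of the 23 members with several listed transcripts had the same leading transcript in all 8 libraries. The others were Mgst1, Gclm and Blvrb. The leading transcript of Blvrb in TS/A held 77.7% to 94.8% of its reads there and 70.2%, 72.5% and 77.1% in 3 of the 4T1 libraries, but 16.4% (11 reads) in 4T1 Gpr56 library 2.

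In 4T1, the vector comparison changed 12 of 35 members, 8 higher and 4 lower with the Gpr56 vector (edgeR's quasi-likelihood test on the 4T1 libraries alone). That is 34.3% of the members, where 22.8% of all 11361 genes tested passed (11.5% higher, 11.3% lower). The median log2 fold change (Gpr56 over empty vector) was 0.01 for the members and 0.00 for all genes, so the set as a whole did not shift. With all 8 libraries in 1 fit, which gives 4T1 the wider spread of TS/A, 0 of 35 members passed (adjusted p of these 12 from 0.162 to 0.762), as did 0.226% of all genes. Without 4T1 empty library 2 the count was 7 of 35 members, 4 higher and 3 lower, beside 12.2% of all genes. The 13 mitochondrially encoded genes all fell with the Gpr56 vector. Of 8 mammary epithelial markers 7 rose, and the other was lower in both Gpr56 libraries (log2 fold change -0.47) without passing. Epithelial markers summed to 3151 to 3236 CPM with the Gpr56 vector and 2238 to 2248 CPM with the empty vector. Immune markers summed to 13.8 to 17.9 CPM against 6.72 to 7.14 CPM, and fibroblast markers to 8.57 to 9.38 CPM against 15.4 to 15.5 CPM. Their part in the changes below was not tested.

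Osgin1 rose most, with 39.6 and 39.8 CPM in 4T1 Gpr56 libraries and 20.6 and 23.4 CPM in 4T1 empty libraries. The groups were well apart, a 1.80-fold rise (log2 fold change 0.85, SE 0.10, edgeR adjusted p = 2.25e-05). Slc7a11 rose 1.45-fold (22.4 and 27.1 CPM in 4T1 Gpr56 and 17.9 and 15.9 CPM in 4T1 empty libraries; 0.53, SE 0.12, adjusted p = 0.00598). Without 4T1 empty library 2 its log2 fold change was 0.45 and just missed the threshold (adjusted p = 0.0515). Abcc1 had 214 and 215 CPM in 4T1 Gpr56 and 179.9 and 169 CPM in 4T1 empty libraries (0.30, SE 0.06, adjusted p = 0.00159). Neither Slc7a11 nor Abcc1, both membrane transporters, had overlapping groups.

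The remaining rises were of 1.15-fold to 1.18-fold. Sod1 had 345 and 357 CPM in 4T1 Gpr56 and 284 and 309 CPM in 4T1 empty libraries (log2 fold change 0.24, SE 0.06, edgeR adjusted p = 0.00685). G6pdx, the entry enzyme of the pentose phosphate pathway, had 227 and 229.7 CPM in 4T1 Gpr56 and 199 and 191 CPM in 4T1 empty libraries (0.23, SE 0.05, adjusted p = 0.00756). Tkt, of its non-oxidative branch, had 585 and 553 CPM in 4T1 Gpr56 and 499 and 484 CPM in 4T1 empty libraries (0.21, SE 0.05, adjusted p = 0.0101). In each of these 3 the groups did not overlap. Keap1 (81.4 and 77.8 CPM in 4T1 Gpr56, 70.3 and 67.0 CPM in 4T1 empty libraries) rose by 0.22 (SE 0.06, adjusted p = 0.0233). Srxn1 (74.8 and 74.0 CPM in 4T1 Gpr56, 66.7 and 62.5 CPM in 4T1 empty libraries) rose by 0.21 (SE 0.07, adjusted p = 0.0332). These small rises were the least firm. Keap1 and Srxn1 were not called by DESeq2 (adjusted p = 0.111 and 0.151), nor without 4T1 empty library 1 (0.0665 and 0.0707), 4T1 empty library 2 (0.242 and 0.340) or 4T1 Gpr56 library 1 (0.0894 and 0.0770). Sod1 dropped out when 4T1 empty library 1 was left out (adjusted p = 0.168), G6pdx without 4T1 empty library 2 (0.139), and Tkt without 4T1 empty library 1 (0.0570) or 2 (0.148).

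The 4 members that fell came from 4 roles. Gclm had 90.1 and 87.9 CPM in 4T1 Gpr56 and 108 and 117 CPM in 4T1 empty libraries (log2 fold change -0.33, SE 0.06, edgeR adjusted p = 0.00139). Gpx4 had 221 and 183 CPM in 4T1 Gpr56 and 250.1 and 255 CPM in 4T1 empty libraries (-0.32, SE 0.07, adjusted p = 0.00548). Neither gene's groups overlapped, though the Gpx4 libraries of the Gpr56 group differed from each other. Txn1, the cytosolic thioredoxin, had 483 and 519 CPM in 4T1 Gpr56 and 599.5 and 603 CPM in 4T1 empty libraries (-0.27, SE 0.05, adjusted p = 0.00255). Sod2 had 109.9 and 112 CPM in 4T1 Gpr56 and 126 and 133 CPM in 4T1 empty libraries (-0.22, SE 0.06, adjusted p = 0.0139), and without 4T1 empty library 2 it no longer passed (adjusted p = 0.228). The superoxide dismutases thus went in opposite directions, cytosolic Sod1 up and mitochondrial Sod2 down. Osgin1, Abcc1, Gclm, Txn1 and Gpx4 kept their calls whichever 4T1 library was left out, though without 4T1 Gpr56 library 2 the Gpx4 log2 fold change was -0.19.

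**Figure D3:**
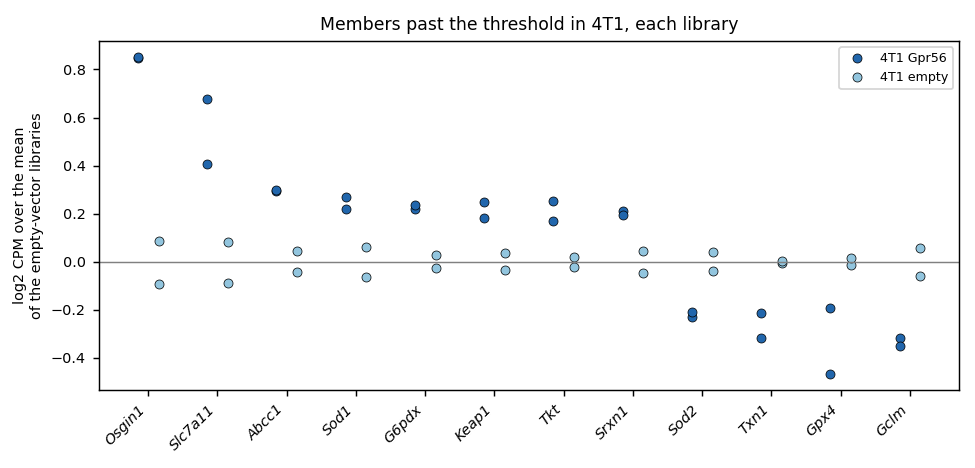
Log2 ratio of CPM to the mean of the empty-vector libraries (y axis) for the 12 members past the threshold in 4T1, each point a library, Gpr56 vector left of empty vector. Osgin1 libraries with the Gpr56 vector lie near 0.85 and coincide, and the Gpx4 libraries are the widest pair among the 4 members that fell.

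Of the 7 members given in full by rule in every comparison, Slc7a11 and Keap1 rose in 4T1, Gclm fell, and the other 4 did not pass. These were Nfe2l2 (log2 fold change 0.05, SE 0.07, edgeR adjusted p = 0.685), Nqo1 (-0.12, SE 0.08, adjusted p = 0.30), Hmox1 (-0.22, SE 0.09, adjusted p = 0.0914) and Gclc (-0.04, SE 0.07, adjusted p = 0.778). Hmox1 passed in 4 of 12 alternatives, in each with the Gpr56 group lower, among them those without 4T1 Gpr56 library 2 (-0.38, adjusted p = 0.00192) and without 4T1 empty library 1 (-0.29, adjusted p = 0.0312). For Nqo1 both Gpr56 libraries lay below both empty libraries, and for Nfe2l2, Hmox1 and Gclc the groups overlapped. Of the 6 glutathione transferases and the 5 genes of quinones, heme and iron, 0 passed. The lowest adjusted p was 0.0616 among the transferases, for Gstp1, and 0.0914 among the quinone, heme and iron genes, for Hmox1. Txnrd1 (0.15, adjusted p = 0.0586) and Gpx1 (0.15, adjusted p = 0.0533) lay just beyond the threshold. In 25 of 35 members the groups did not overlap, 13 with the Gpr56 vector higher and 12 lower, beside 61.7% of all genes (30.5% higher, 31.2% lower).

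In TS/A, 0 of 35 members passed between the libraries labelled Gpr56 and those labelled empty vector by edgeR (lowest adjusted p = 0.9999), as did 0% of all 11276 genes; 115 genes (1.02%), 1 of them a member (Hmox1), had an unadjusted p under 0.05, and DESeq2 called 3 genes. The members' median log2 fold change was 0.08, against -0.02 for all genes. The TS/A groups did not overlap in 12 of 35 members, 9 with the libraries labelled Gpr56 higher and 3 lower, where 21.7% of all genes did so (11.3% higher, 10.4% lower). Hmox1 was the clearest of these, with 179.7 and 177 CPM in TS/A libraries labelled Gpr56 and 131 and 119.8 CPM in those labelled empty (0.51, SE 0.16, unadjusted p = 0.0219, adjusted p = 0.9999). Slc7a11 had an equal estimate (0.52, SE 0.32), with 128 and 207 CPM in TS/A libraries labelled Gpr56 and 92.2 and 140.3 CPM in those labelled empty, and its groups overlapped. Osgin1, at 13.8 and 16.2 CPM in TS/A libraries labelled Gpr56 and 14.5 and 9.37 CPM in those labelled empty, overlapped too (0.33, SE 0.26).

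The result in TS/A changed with the choice of empty-vector libraries. Between the TS/A empty libraries 18 of 35 members differed by over 1.2-fold, against 5 between the TS/A libraries labelled Gpr56, 4 between the 4T1 Gpr56 libraries and 1 between the 4T1 empty libraries. In 10 of 35 members the TS/A empty libraries lay on both sides of both libraries labelled Gpr56. Neither count was made for all genes. Across genes, differences beyond sampling noise were also largest between the TS/A empty libraries (117.6 chi-square units for each degree of freedom). The other pairs had 17.4 (TS/A labelled Gpr56), 5.39 (4T1 Gpr56) and 3.58 (4T1 empty). Among the members, Gpx4 had the widest gap, 402 CPM in TS/A empty library 1 and 821 CPM in library 2, or 1.03 on the log2 scale. Without TS/A empty library 2, 7 of 35 members passed, all of them higher in the libraries labelled Gpr56, beside 9.88% of all genes. The spread in this fit comes from the 2 libraries labelled Gpr56 alone (coefficient of variation 10.8%, against 19.6% with all 4 TS/A libraries), and the lone empty library is assumed to vary like them. The 7 were Gpx4 (0.75, SE 0.14), Slc7a11 (0.88, SE 0.22), Gss (0.62, SE 0.15), Blvrb (0.61, SE 0.16), Taldo1 (0.57, SE 0.14), Gstp1 (0.55, SE 0.14) and Hmox1 (0.47, SE 0.13), with edgeR adjusted p from 0.0154 to 0.0413. Without TS/A empty library 1, 0 of 35 members passed, beside 0.114% of all genes (13). The mitochondrial share of reads was 0.517% in both TS/A libraries labelled Gpr56 and 0.859% and 0.655% in TS/A empty libraries 1 and 2, and its part was not tested.

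**Figure D4:**
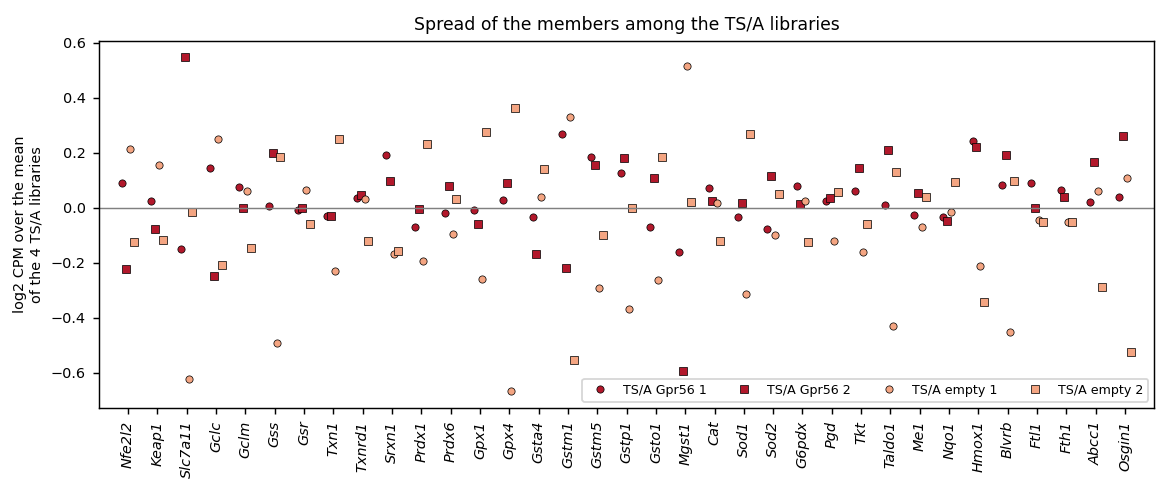
Log2 ratio of CPM to the mean of the 4 TS/A libraries (y axis) for 35 members, libraries labelled Gpr56 in dark red and empty in light orange. Circles are library 1 and squares library 2; for Gpx4, Sod1, Gpx1 and Txn1 the empty libraries lie far apart on either side of the libraries labelled Gpr56.

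The difference between the vector effects (TS/A minus 4T1), tested as an interaction over all 8 libraries, passed for 0 of 35 members by edgeR, where 0.0668% of 11970 genes passed (8) and 6.4% had an unadjusted p under 0.05. The lowest adjusted p among members was 0.489, for Hmox1, with an unadjusted p of 0.00623 and a difference of 0.71 on the log2 scale (SE 0.20). DESeq2 and limma-voom called 66 and 0 of all genes. Among members with groups apart in both lines, Txnrd1, Srxn1, Gstp1, Cat and Tkt were higher with the Gpr56 label in both. Mgst1 and Nqo1 were lower in both, and only Gstm5 and Gsta4 went in opposite directions. How often all genes did either was not counted, so these members are not set apart from other genes. Taken singly, groups were apart in 61.7% of all genes in 4T1 and in 21.7% in TS/A. Adgrg1 did not part the labels in TS/A, and a shared vector response was not tested. Gstm5 was higher with the Gpr56 label in TS/A and lower in 4T1 (difference 0.77, SE 0.24, adjusted p = 0.597), and Gsta4 was lower in TS/A and higher in 4T1 (-0.38, SE 0.16, adjusted p = 0.764). Gclm fell in 4T1 and stood at 0.08 (SE 0.17) in TS/A, and this difference did not pass either (0.41, SE 0.16, adjusted p = 0.737). Without TS/A empty library 1 the interaction passed for 4 members, Gclm, Gpx1, Hmox1 and Sod1 (2.54% of all genes). Without TS/A empty library 2 it passed for 9, among them Gpx4, Hmox1, Gstm5, Osgin1 and Keap1 (19.5% of all genes). Hmox1 had a difference of 0.79 without library 1 and 0.66 without library 2. In both fits the lone TS/A empty library is assumed to vary like the other 3 groups (coefficient of variation 7.78%, against 14.7% with all 8 libraries).

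**Figure D5:**
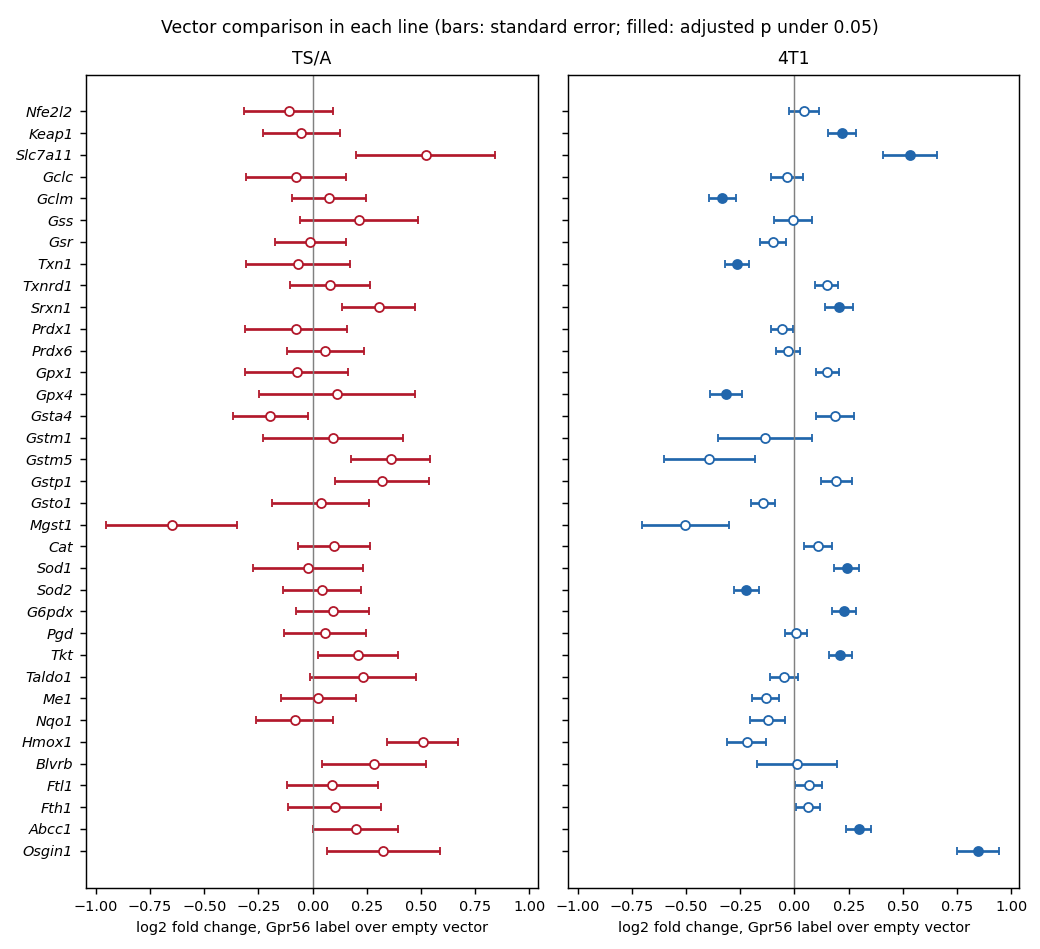
Log2 fold change of the Gpr56 label over the empty vector (x axis) for 35 members in TS/A (left) and 4T1 (right); bars are standard errors and filled points passed an adjusted p of 0.05 in the fit of that line. The 12 filled points are all in 4T1, where the bars are shorter, and Slc7a11 lies near 0.5 in both lines.

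Other genes of the pathway were taken from 8 lists with 135 names, of which 132 were in the tables. In the 4T1 vector comparison 28 of 102 tested passed, 13 higher and 15 lower, beside 22.8% of all genes. Among 15 pathway regulators 3 rose and 1 fell: Sqstm1, the autophagy receptor p62 that binds KEAP1, rose to 496 and 546 CPM in 4T1 Gpr56 libraries, against 393 and 408 CPM in 4T1 empty libraries (log2 fold change 0.38, SE 0.06, edgeR adjusted p = 2.88e-04). Bach1, a repressor that competes for the same DNA element, rose by 0.36 (SE 0.09, adjusted p = 0.0088), and Sesn2, a stress-induced sestrin, fell by 0.65 (SE 0.16, adjusted p = 0.0094). Of 15 further NRF2 targets or redox genes 2 rose and 3 fell, Txnip, the thioredoxin-binding inhibitor, by 0.77 upward (SE 0.13) and Ugdh, which makes UDP-glucuronate, by 0.46 downward (SE 0.06). Akr1c13 rose (0.61) and Nampt fell (-0.25) as well.

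Of 15 further glutathione cycle genes 0 rose and 3 fell in 4T1. Chac1, which degrades glutathione, had 10.6 and 8.81 CPM in 4T1 Gpr56 libraries and 21.2 and 21.4 CPM in 4T1 empty libraries (log2 fold change -1.11, SE 0.13, edgeR adjusted p = 2.99e-05). Glo1, the glutathione-dependent glyoxalase, fell by 0.26 (SE 0.06). Of 9 further transferases 3 rose and 2 fell: Gstm2 had 19.4 and 20.2 CPM in 4T1 Gpr56 libraries and 31.9 and 31.3 CPM in 4T1 empty libraries (-0.68, SE 0.10), while Gsta1 (0.85, SE 0.16) and Gstz1 (0.43, SE 0.14) rose. Of 15 thioredoxin and peroxiredoxin genes 0 rose and 2 fell, Prdx4 of the endoplasmic reticulum (-0.40, SE 0.06) and Txndc12 (-0.26, SE 0.08). Txn1 among the members fell too, while Srxn1 of the same role rose (0.21, SE 0.07, edgeR adjusted p = 0.0332). The calls in this further list were 13.3% of its genes, beside 22.8% of all genes. Prdx4 stood at 76.2 and 72.8 CPM in 4T1 Gpr56 libraries and 96.9 and 100.3 CPM in 4T1 empty libraries.

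Of 14 further NADPH genes 2 rose and 2 fell in 4T1. The pentose phosphate enzymes Rpia (0.34, SE 0.07) and Pgls (0.42, SE 0.08) rose. Among the members of that pathway G6pdx and Tkt rose, while Pgd (0.007, adjusted p = 0.940) and Taldo1 (-0.05, adjusted p = 0.648) did not pass. Of the other NADPH genes, the mitochondrial enzymes Nadk2 (-0.60, SE 0.10) and Mthfd2 (-0.18, SE 0.06) fell. Of 12 heme and iron genes Hmox2 (0.32, SE 0.07) and Ncoa4 (0.23, SE 0.06) rose and ceruloplasmin Cp (-1.12, SE 0.16) and Ireb2 (-0.18, SE 0.06) fell. Of 7 ferroptosis genes Lpcat3 rose (0.32, SE 0.09) and 0 fell. In TS/A 0 of 110 tested genes of these lists passed by edgeR, of which 3 had an unadjusted p under 0.05.

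Between the lines, these lists were also more often higher in TS/A than lower. Of 114 tested genes 57 were higher and 18 lower in TS/A, with a median log2 fold change of 0.37, beside 32.8% higher and 32.4% lower of all genes. The further NRF2 targets were called in 18 of 18 cases, 14 higher and 4 lower, and the further glutathione transferases were higher in 9 of 14 and lower in 0. Glutathione cycle genes were higher in 10 and lower in 1 of 16, thioredoxin and peroxiredoxin genes higher in 7 and lower in 2 of 16, and the regulators higher in 6 and lower in 1 of 16. NADPH genes (4 higher and 4 lower of 15), heme and iron genes (4 higher and 5 lower of 12) and ferroptosis genes (3 higher and 1 lower of 7) were more even.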

How the data were processed

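The data were 8 bulk RNA-seq libraries. Per the labels' protocols, the RNeasy Mini Kit gave total RNA and the TruSeq v2 kit, without strand marks, gave the libraries. Sense and antisense reads at overlapping genes therefore cannot be told apart. Each deposited table gave a whole-number read count for each of 65042 transcripts and, per the file headers, an RPKM value. The aligner, counter, build and annotation the authors used are not stated in the labels or headers. RPKM equalled reads per length and 1 factor per library within 0.001 for 98.4% to 98.5% of transcripts with at least 21 reads. RPKM was used only for levels between genes.

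Counts were summed by gene name. GENCODE M21 (GRCm38) held 65023 of the transcript identifiers and gave the coordinates; 24 names covered more than 1 gene identifier. Genes kept by filterByExpr entered the quasi-likelihood test of edgeR 4.0.16 (glmQLFTest, TMM scaling, R 4.3.3), Benjamini-Hochberg adjusted over all genes, at a threshold of 0.05. Each line's vector effect was fitted on its 4 libraries; the line effect (mean of the TS/A groups minus mean of the 4T1 groups) and the interaction used all 8. The biological coefficient of variation was 5.47% in 4T1, 19.6% in TS/A and 14.7% over all 8. Standard errors and p-values of the line effect and the interaction rest on that shared spread, too wide for 4T1 and too narrow for TS/A. Standard errors are the log2 fold change over the square root of F. CPM are TMM-scaled, and 3 reads were 0.281 CPM in the shallowest library. The script was tested on simulated data. Alternatives used DESeq2 1.42.0 (also its size factors), limma-voom (limma 3.58.1), library totals, other filters, a replicate block and leaving out each library. A limma-voom fit with a spread per line was added after seeing the data.

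The members, lists and tests were chosen with earlier results of these data known. By rule, every library's values are given for Nfe2l2, Keap1, Nqo1, Hmox1, Slc7a11, Gclc, Gclm, each member past the threshold in a vector effect and the 8 largest line differences; of the other lists, up to 2 genes each way per list with the smallest adjusted p in 4T1 and at least 10 CPM in the higher group. Other members and Adgrg1 are given in brief. The libraries of each group differed by more than sampling noise (3.58 to 117.6 chi-square units for each degree of freedom), so none were merged.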

Additional observations from a re-analysis of the deposited data

How the results depend on the processing

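Members called between the lines numbered 22 to 30 with 1 library left out, beside 6601 to 9327 of all genes, and no call of a member between the lines changed sign in any of 17 alternatives. In the 4T1 vector effect, 0 members and 27 genes passed with all 8 libraries in 1 fit, 1549 genes passed by DESeq2, and leaving out 1 library gave 7 to 14 members and 1403 to 2748 genes. With library totals the 4T1 calls split 1624 higher and 1042 lower, against 1308 and 1280. In TS/A, the genes called were 3 by DESeq2, 4 with no filter, 26 with a replicate block and 1 with all 8 libraries, and 4 to 1140 with 1 library left out (0 to 7 members). For the difference of vector effects they were 4 with library totals, 66 by DESeq2, 0 by limma-voom, 60 with no filter, 3 with a replicate block and 2 by limma-voom with a spread per line, and 0 to 2391 with 1 library left out (0 to 9 members). The cause was not tested. In 4T1 Hmox1 passed with a replicate block (adjusted p = 0.0198), with no filter (0.0103), without 4T1 empty library 1 (0.0312) and without 4T1 Gpr56 library 2 (0.00192). Same-numbered libraries deviated together in TS/A (r = 0.31 across 11970 genes) and not in 4T1 (-0.02). With a replicate block the coefficient of variation was 15.3% in TS/A, against 19.6% without it. In 4T1 it was 5.90%, against 5.47%. Whether the replicate numbers pair libraries was not established, and the main fits did not pair them. With 1 library left out, the sign turned in 9 of 35 members in 4T1, 17 in TS/A, 20 for the difference and 2 between the lines, 0 of them called with all libraries. In TS/A they included Gpx4 (-0.31 to 0.75 on the log2 scale), Sod1 (-0.28 to 0.33), Gpx1 (-0.32 to 0.25), Txn1 (-0.28 to 0.22) and Prdx1 (-0.27 to 0.18). Of the 7 members given in full by rule, those that turned ran from -0.013 to 0.12 (Nfe2l2) and -0.11 to 0.051 (Gclc) in 4T1, from -0.26 to 0.063 (Nfe2l2), -0.16 to 0.087 (Keap1) and -0.27 to 0.17 (Gclc) in TS/A, and from -0.32 to 0.023 (Nfe2l2), -0.40 to 0.33 (Slc7a11), -0.26 to 0.21 (Gclc) and -0.049 to 0.12 (Nqo1) for the difference, where Slc7a11 stood at 0.0056 by limma-voom with a spread per line.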

Other observations

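Among the NRF2 targets outside the members, 3 that parted the lines were singled out after their values were seen. Pir, which encodes the iron-binding nuclear protein pirin, had 117 and 124 CPM in TS/A Gpr56 and 106 and 108 CPM in TS/A empty libraries. In 4T1 it had 0 reads in both Gpr56 libraries and 0 and 2 reads in the empty libraries. Cbr3, a carbonyl reductase, had 48.8 and 48.7 CPM in TS/A Gpr56 and 34.2 and 63.4 CPM in TS/A empty libraries, against 0.328 and 0.281 CPM in 4T1 Gpr56 and 0.394 and 0.282 CPM in 4T1 empty libraries. Aldh3a1, an aldehyde dehydrogenase, had 159 and 107 CPM in TS/A Gpr56 and 208 and 98.4 CPM in TS/A empty libraries, against 8.38 and 6.28 CPM in 4T1 Gpr56 and 6.47 and 7.61 CPM in 4T1 empty libraries (log2 fold change 4.30, SE 0.28, edgeR adjusted p = 4.90e-06). The direction was not shared by the drug exporter Abcg2, which had 0.800 and 1.38 CPM in TS/A Gpr56 and 0.902 and 1.35 CPM in TS/A empty libraries, against 21.5 and 22.3 CPM in 4T1 Gpr56 and 22.3 and 21.8 CPM in 4T1 empty libraries.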
